A study of Mus musculus with 16 samples.

Results

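The genes for the proteins of the mitochondrial ribosome were followed in glomerular extracts of mice with and without oestrogen receptor alpha. Members were the genes whose symbol starts with Mrpl or Mrps followed by a digit, each measured by 1 probeset that carries only that symbol, with pseudogenes left out. This gave 75 of the 30142 genes measured, 47 named for the large subunit (Mrpl) and 28 for the small subunit (Mrps). The gene reference holds 78 such symbols, and the other 3 (Mrpl30, Mrpl53 and Mrps6) stand only on probesets shared with another symbol and were not analysed here. RNA came from 16 female mice, 1 array each. Wild type mice were C57Bl/6 and knockout mice were of the strain labelled B6.ERαKO, without a working Esr1 gene. Each of the 8 groups held 2 mice. The groups of either genotype were without serum or were sampled at 18 hours, 6 days or 2 weeks after an injection of nephrotoxic serum from sheep (8 ul per g), whose antibodies bind the glomerular basement membrane and start an inflammation of the glomerulus. All groups shared the C57Bl/6 background, and the untreated groups are labelled as having had no serum. The labels do not describe the mutant allele, and do not name a cell type in which it acts. Values are the deposited log2 values, and a difference of values is called a log2 difference.

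Mitochondria translate their own small set of messenger RNAs, all of them for subunits of the respiratory chain and ATP synthase, on a ribosome of their own. Its RNAs are made in the mitochondrion, but every one of its proteins is encoded in the nucleus, made in the cytosol and imported. Many of these proteins descend from those of the bacterial ribosome, and the others were added in the mitochondrial line. In the kidney the proximal tubule is the segment best known for its wealth of mitochondria.

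Promoter stretches are shown here for the 5 falls in wild type at 2 weeks that are described first below (Mrpl2, Mrpl11, Mrpl43, Mrpl37 and Mrpl27) and for Mrpl33, the member that rose. Mrps27, a further fall, was added after its match was seen. Each is the 120 bases before an annotated RefSeq start on the GRCm38.p6 build, 5′ to 3′ on the strand of the gene. Mrpl43 and Mrpl37 lie on the minus strand and the others on the plus strand. The stretches of Mrpl43, Mrpl27 and Mrps27 carry the letters CCGGAAG, the core of sites for ETS factors such as GABP, on one strand or the other. Capitals mark these letters, which read CTTCCGG where they lie on the opposite strand. The stretches of Mrpl2, Mrpl11, Mrpl37 and Mrpl33 do not hold them.
Mrpl2, chr17:46646101-46646220: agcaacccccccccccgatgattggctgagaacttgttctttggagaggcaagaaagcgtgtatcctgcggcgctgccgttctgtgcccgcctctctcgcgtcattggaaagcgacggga
Mrpl11, chr19:4962186-4962305: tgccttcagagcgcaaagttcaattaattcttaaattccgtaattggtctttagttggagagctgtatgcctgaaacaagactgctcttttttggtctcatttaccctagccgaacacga
Mrpl43, chr19:45006443-45006562: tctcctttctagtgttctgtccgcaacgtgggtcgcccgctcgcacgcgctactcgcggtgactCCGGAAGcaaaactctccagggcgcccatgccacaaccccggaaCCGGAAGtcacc
Mrpl37, chr4:107066867-107066986: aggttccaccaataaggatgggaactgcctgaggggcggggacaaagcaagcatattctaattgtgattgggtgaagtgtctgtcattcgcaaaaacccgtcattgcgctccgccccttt
Mrpl27, chr11:94653671-94653790: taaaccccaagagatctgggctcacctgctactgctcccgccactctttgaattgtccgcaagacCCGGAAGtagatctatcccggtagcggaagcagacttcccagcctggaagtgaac
Mrps27, chr13:99344666-99344785: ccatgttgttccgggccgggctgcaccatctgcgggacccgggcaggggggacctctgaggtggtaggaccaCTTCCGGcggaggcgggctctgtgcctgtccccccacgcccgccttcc
Mrpl33, chr5:31613831-31613950: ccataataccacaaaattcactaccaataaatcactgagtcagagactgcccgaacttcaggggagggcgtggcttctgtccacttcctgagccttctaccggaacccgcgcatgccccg

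Over the windows of 300 bases that run from 250 before to 50 after a start, 66 members had a RefSeq entry. On either strand, 25 of these 66 (37.9%) held CCGGAAG, against 9.93% of the windows of all 27025 genes and 12.9% of those of 17491 protein-coding genes. The NRF1 letters (GCGC, any base, then TGCGC), the core of sites for NRF1, a factor named for its sites at nuclear genes of the respiratory chain, stood in 12 members (18.2%), against 5.19% and 7.17%. The letters ATGGCGGC, a site of YY1, stood in 11 members (16.7%), against 2.6% and 3.5%. The Sp1 letters GGGCGG stood in 33 members (50%), against 38.2% and 49.2%. The E-box CACGTG stood in 5 members (7.58%), against 8.09% and 8.91%. Neither the oestrogen response element (GGTCA and TGACC with 3 bases between them, 0 of 66, against 0.074% of all genes) nor the ERR letters TCAAGGTCA (0 of 66, against 0.466%) was found in a member's window. The NRF1 and Sp1 letters can lie in overlapping stretches rich in G and C, and a match of letters describes a window, not a bound site. Among 11 members with a window that were called lower in wild type mice at 2 weeks, 6 held CCGGAAG, 0 the NRF1 letters, 3 the YY1 letters, 7 the Sp1 letters and 3 the E-box. The window of Mrpl33 also holds CCGGAAG, outside the stretch printed above.

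Some arrays stood apart from their labels. Esr1 was not lower in the knockout, with log2 values of 6.35 to 7.53 in wild type and 7.11 to 7.64 in knockout arrays, and the sources used here do not say whether its probeset lies in a deleted part. The mean of 8 genes known to be higher in male than in female kidney was 7.51 to 9.18 in 7 of 8 wild type arrays and 15.77 in the library labelled wild type 18 hours replicate 2. In knockout arrays it was 11.9 to 16.45, apart from 7.44 in the library labelled knockout 18 hours replicate 2. Each of these libraries carried the other genotype's values for these genes, so results are also given without both (14 arrays). Their Esr1 values were 7.53 and 7.11, in that order. Esr1 was 6.35 to 7.04 in the other wild type arrays and 7.29 to 7.64 in the other knockout arrays. The library labelled knockout 2 weeks replicate 1 had a value of 7.17 for Havcr1, a marker of injured tubule. Its replicate had 12.77, and wild type at 2 weeks had 13.23 and 12.56. Means of podocyte, endothelial and mesangial markers in knockout 2 weeks replicate 1 were 9.66, 9.59 and 8.06, the lowest of all arrays. In its replicate they were 11.57, 11.72 and 9.71. Results at 2 weeks are therefore also given without knockout 2 weeks replicate 1. Proximal tubule markers were measured on every array of these glomerular extracts, beside podocyte markers (7 of 10 listed genes measured). Nothing in the labels gives a batch, and the number of arrays limits the precision.

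**Figure D1:**
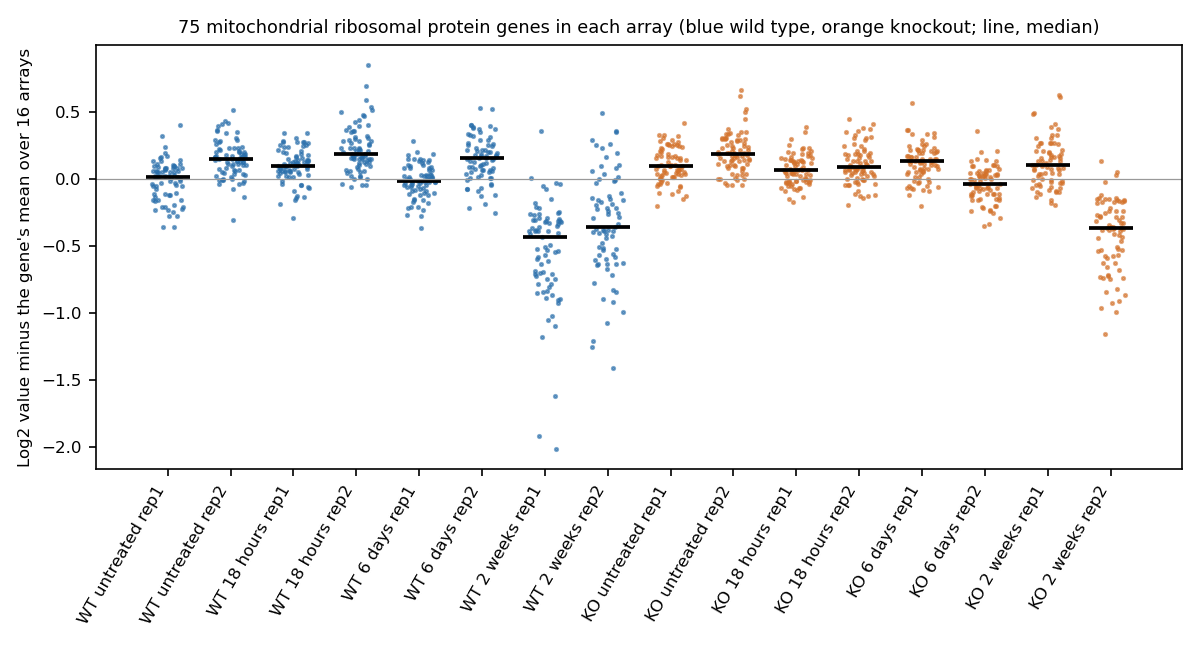
Log2 value of each of the 75 genes minus that gene's mean over 16 arrays, 1 column of points per array, wild type in blue and knockout in orange, with the median as a black line. The medians of the 12 arrays before 2 weeks lie between -0.033 and 0.192, and 3 of the 4 arrays at 2 weeks have medians between -0.429 and -0.356, while knockout 2 weeks replicate 1 has 0.104.

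The set as a whole was low at 2 weeks in wild type mice. With each gene centred on its own mean over the 16 arrays, the median of the 75 members was -0.39 ± 0.05 (SD, n = 2) in wild type at 2 weeks. It was 0.08 ± 0.09 in untreated wild type, 0.15 ± 0.07 at 18 hours and 0.08 ± 0.12 at 6 days. In the knockout it was 0.14 ± 0.06 untreated, 0.08 ± 0.02 at 18 hours, 0.05 ± 0.12 at 6 days and -0.13 ± 0.33 at 2 weeks. The 6 groups before 2 weeks thus ran from 0.05 to 0.15, and the wide spread of the knockout at 2 weeks came from 2 arrays that differed from each other, at 0.104 and -0.366. The plot of members by array shows the same 4 arrays of the last time. The group of the lowest mean was wild type at 2 weeks for 63 of the 75 members and the knockout at 2 weeks for 5.

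At 2 weeks in wild type mice 13 members had fallen and 1, Mrpl33, had risen at an adjusted p under 0.05 (limma over all genes, Benjamini-Hochberg). The share of all 30142 genes called lower was 3.23% and the share called higher 4.81%. On the lower side 13 of 75 (17.3%) thus stood above this background, which includes dim genes. Above the filter for dim genes, a mean of 6.00, lay 73 of the members and 15071 of all genes. With dim genes left out the background called lower was larger, and it is given in the last section. Of the 75 members 72 were below 0, with a median log2 difference of -0.446, while the median of all genes was 0.128 and 35.4% of all genes were below 0. Relative to that shift of all genes the median of the members lay 0.574 lower. Groups did not overlap, with both arrays at 2 weeks below both untreated arrays, for 58 of 75 members (77.3%), against 20% of all genes. In RNA from whole extracts, fewer cells of a type and less RNA per cell cannot be told apart. All genes called in this comparison numbered 1450 higher and 974 lower, against 486 and 611 after quantile normalization and 538 and 2728 after centring each array on its median.

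The largest of the called falls was in Mrpl2, the counterpart of a bacterial protein at the core of the large subunit. Its log2 value was 9.09 and 9.30 in wild type at 2 weeks, against 10.81 and 11.13 in untreated wild type. The 12 arrays before 2 weeks had a lowest value of 10.78, a median of 10.88 and a highest value of 11.37. All 12 lay above both wild type arrays at 2 weeks. Its log2 difference was -1.77 ± 0.35 (SE, adjusted p = 0.021). In the knockout at 2 weeks it was 11.20 in replicate 1, inside the earlier range, and 9.84 in replicate 2, below it.

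Mrpl11 belongs to the stalk base, where translation factors dock on the large subunit. It was 6.67 and 6.82 at 2 weeks, against 7.56 and 7.94 in untreated wild type, and lay between 7.56 and 8.00 on the 12 earlier arrays. The log2 difference was -1.01 ± 0.19 (adjusted p = 0.019). Mrpl43, a protein with no bacterial counterpart, was 6.30 and 5.91, against 6.92 and 7.01 untreated and 6.83 to 7.05 on the earlier arrays, a log2 difference of -0.86 ± 0.17 (adjusted p = 0.020). Both arrays at 2 weeks were again below all earlier ones for these genes. Knockout 2 weeks replicate 1 was inside the earlier range for both, at 7.76 and 6.97, and replicate 2 below it, at 7.21 and 6.46.

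Other proteins of the large subunit that fell were Mrpl37, Mrpl27, Mrpl21, Mrpl46, Mrpl19 and Mrpl48. Mrpl37, without a bacterial counterpart, was 10.40 and 9.92 at 2 weeks against 11.22 and 11.25 untreated, with -1.07 ± 0.22 (adjusted p = 0.023). In the 6-day arrays it was 10.61 and 11, where the log2 difference of -0.43 did not pass (adjusted p = 0.79). Mrpl27, the counterpart of a bacterial protein next to the site where peptide bonds form, was 9.39 and 8.90 against 10.02 and 10.20. Its log2 difference was -0.97 ± 0.21 (adjusted p = 0.025), and its promoter stretch is printed above. The falls of the others in this group were -0.97 for Mrpl21, -0.90 for Mrpl46, -0.61 for Mrpl19 and -0.49 for Mrpl48. Their adjusted p-values ran from 0.029 to 0.046.

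In the small subunit 4 proteins fell. Mrps7, the counterpart of a bacterial protein of the subunit's head, was 7.19 and 6.88 at 2 weeks against 8.11 and 8.09 untreated, with -1.06 ± 0.26 (adjusted p = 0.035). Mrps18c, one of several paralogues related to a single bacterial protein, was 9.95 and 10.06 against 10.68 and 10.88, with -0.78 ± 0.16 (adjusted p = 0.024). Its paralogues Mrps18a and Mrps18b had log2 differences of -0.61 (adjusted p = 0.074) and 0.05 (adjusted p = 0.90), which did not pass. Mrps27, a protein of the pentatricopeptide repeat family that is known to bind RNA, was 7.73 and 7.70 against 8.32 and 8.34, with -0.61 ± 0.14 (adjusted p = 0.031). Mrps35 was 8.04 and 8.43 against 8.73 and 8.98, with -0.62 ± 0.17 (adjusted p = 0.047), and the second of these arrays was inside the range of the 12 earlier arrays (8.25 to 8.98).

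Mrpl33, the counterpart of a small bacterial protein of the large subunit, was the exception. It was 6.84 and 6.83 at 2 weeks in wild type and between 6.34 and 6.52 on all 12 earlier arrays, with a median of 6.42. Both knockout arrays at 2 weeks, at 6.42 and 6.51, were inside that range. The log2 difference in wild type was 0.36 ± 0.09 (adjusted p = 0.036), against a median of 0.128 over all genes. Mrpl33 had a low mean over the 16 arrays, 6.48, where the filter for dim genes was set at 6.00. It was called under 8 of 25 alternative settings, and its log2 difference lay between 0.14 and 0.40 over them.

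**Figure D2:**
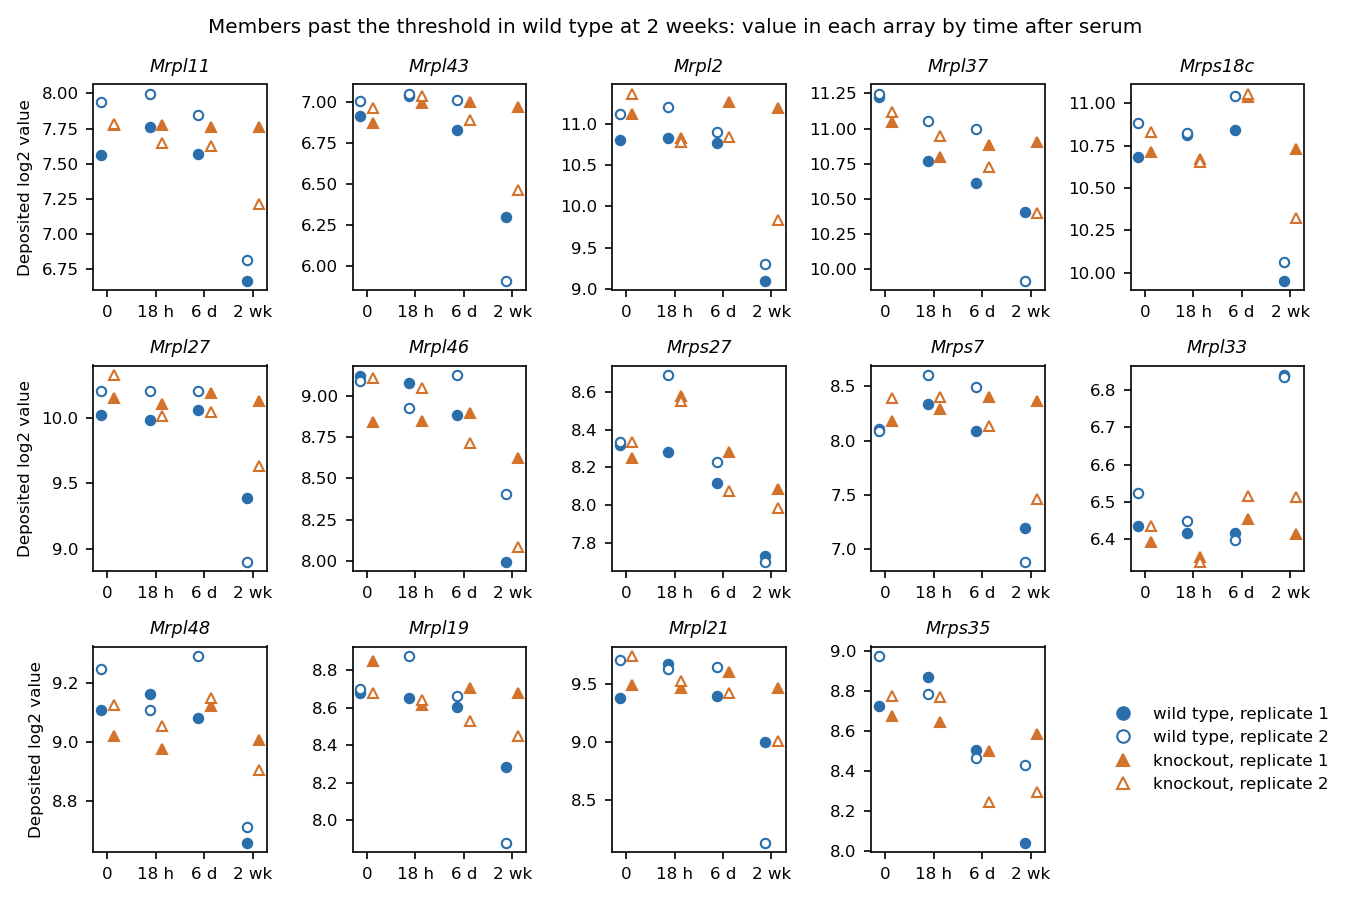
Deposited log2 value in each of the 16 arrays, by time after serum, of the 14 members that passed in wild type at 2 weeks, 1 panel per gene with its own vertical axis, circles for wild type and triangles for knockout, filled for replicate 1 and open for replicate 2. In 13 panels the wild type points at 2 weeks are low and in the panel of Mrpl33 they are high, and the filled triangle at 2 weeks stays near the earlier arrays.

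Several members with falls of like size did not pass. Mrpl50 was 9.24 and 10.33 at 2 weeks against 11.06 and 11.52 untreated, a log2 difference of -1.50 ± 0.46 (adjusted p = 0.066). Mrpl42 was 10.51 and 12.27 against 12.76 and 12.82, a log2 difference of -1.40 ± 0.56 (adjusted p = 0.13). Both arrays were below both untreated arrays for each gene, but the 2 arrays at 2 weeks differed by more than a log2 unit. Mrps36, which is also known as a component of the 2-oxoglutarate dehydrogenase complex, was at -1.09 ± 0.35 (adjusted p = 0.075).

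Members of well known function were spread over this range. Mrpl12 of the factor-binding stalk, a protein also reported to bind the mitochondrial RNA polymerase, was 7.24 and 7.69 at 2 weeks against 8.19 and 8.34 untreated, with -0.80 (adjusted p = 0.051). Its partner in the stalk, Mrpl10, was at -0.45 (adjusted p = 0.13). Mrpl58, a peptidyl-tRNA hydrolase that frees stalled ribosomes, was at -0.66 (adjusted p = 0.055). Mrps12, at the decoding site, was at -0.73 (adjusted p = 0.062). None of these 4 passed the threshold. Mrpl44, which has a fold of the RNase III family, was at -0.58 (adjusted p = 0.11) and Mrpl45, which holds the ribosome at the inner membrane, at -0.29 (adjusted p = 0.22). Mrpl3 was at -0.24 (adjusted p = 0.35), Mrpl4 at -0.39 (adjusted p = 0.17), Mrps5 at -0.42 (adjusted p = 0.11), Mrps15 at -0.28 (adjusted p = 0.24) and Mrps22 at -0.31 (adjusted p = 0.28). Mrps30 was at -0.05 (adjusted p = 0.83) and Mrps2 at 0.12 (adjusted p = 0.66).

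The count of called members rested on single arrays, while the direction of the set did not. Without wild type untreated replicate 1, wild type untreated replicate 2 or wild type 2 weeks replicate 2 the count was 0, and 72, 67 and 74 of the 75 members respectively were still below 0. The shares of all genes called lower in these 3 fits were 0.0265%, 0% and 0.226%. Without either knockout array at 2 weeks the count was 34, of which 33 were lower, against 6.89% to 6.9% of all genes called lower. It was 9 without either wild type 18-hour array (2.39% to 2.4%) or either knockout 6-day array (2.11%), 8 without either knockout 18-hour array (2.11%) and 7 without either untreated knockout array (1.5%), all lower. Without both 18-hour replicate 2 arrays it was 5, all lower (1.24%), and without these and knockout 2 weeks replicate 1 it was 26, of which 25 were lower (6.49%). The fit of the 2 groups alone called 1, which was lower (1.09%). The median log2 difference lay between -0.517 and -0.412 when 1 array was left out in turn. Without wild type 2 weeks replicate 1 it was -0.449, with 64 of the 75 members below 0. Of the 14 genes, Mrpl2 was called under 22 of 25 alternative settings, and Mrpl11, Mrpl37 and Mrpl43 under 21 each.

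Members were then divided by the subunit in their name, which need not be where the protein sits, and by a list of origin. The background for each is 3.23% of all genes called lower and 4.81% called higher. Of members named for the large subunit, 9 of 47 fell (19.1%) and 1 rose (2.13%), with a median of -0.49. Of those named for the small subunit, 4 of 28 fell (14.3%), with a median of -0.42. Origin was taken from background knowledge. The list counts Mrpl55 as having a bacterial counterpart, which is doubtful, and single placements were not checked. Of 46 members listed with a bacterial counterpart, 7 fell (15.2%) and 1 rose (2.17%), with a median of -0.42. Of the 29 listed as specific to mitochondria, 6 fell (20.7%), with a median of -0.50. All 29 of the latter were below 0. The difference between these divisions was not tested.

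In the knockout at 2 weeks the 2 arrays differed. Below all 12 earlier arrays lay 62 of 75 members in replicate 2 (82.7%, against 16.3% of all genes) and 4 in replicate 1 (5.33%, against 10.3%). In wild type at 2 weeks these numbers were 66 in replicate 1 (88%, against 17%) and 47 in replicate 2 (62.7%, against 17.9%). The median change of the members from the untreated mean of the same genotype was -0.538 in knockout replicate 2, -0.039 in knockout replicate 1, -0.513 in wild type replicate 1 and -0.449 in wild type replicate 2. Of the 13 members that fell in wild type, 12 were below all earlier arrays in knockout replicate 2 and 1 in knockout replicate 1. Across the 75 members the wild type change at 2 weeks had a Pearson r of 0.689 (Spearman rho 0.636) with the change in knockout replicate 2, and of -0.081 (rho -0.008) with that in replicate 1. These are descriptions across genes, which are not independent replicates. Each pair of changes shares no array, and over all 30142 genes r was 0.738 and 0.154.

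**Figure D3:**
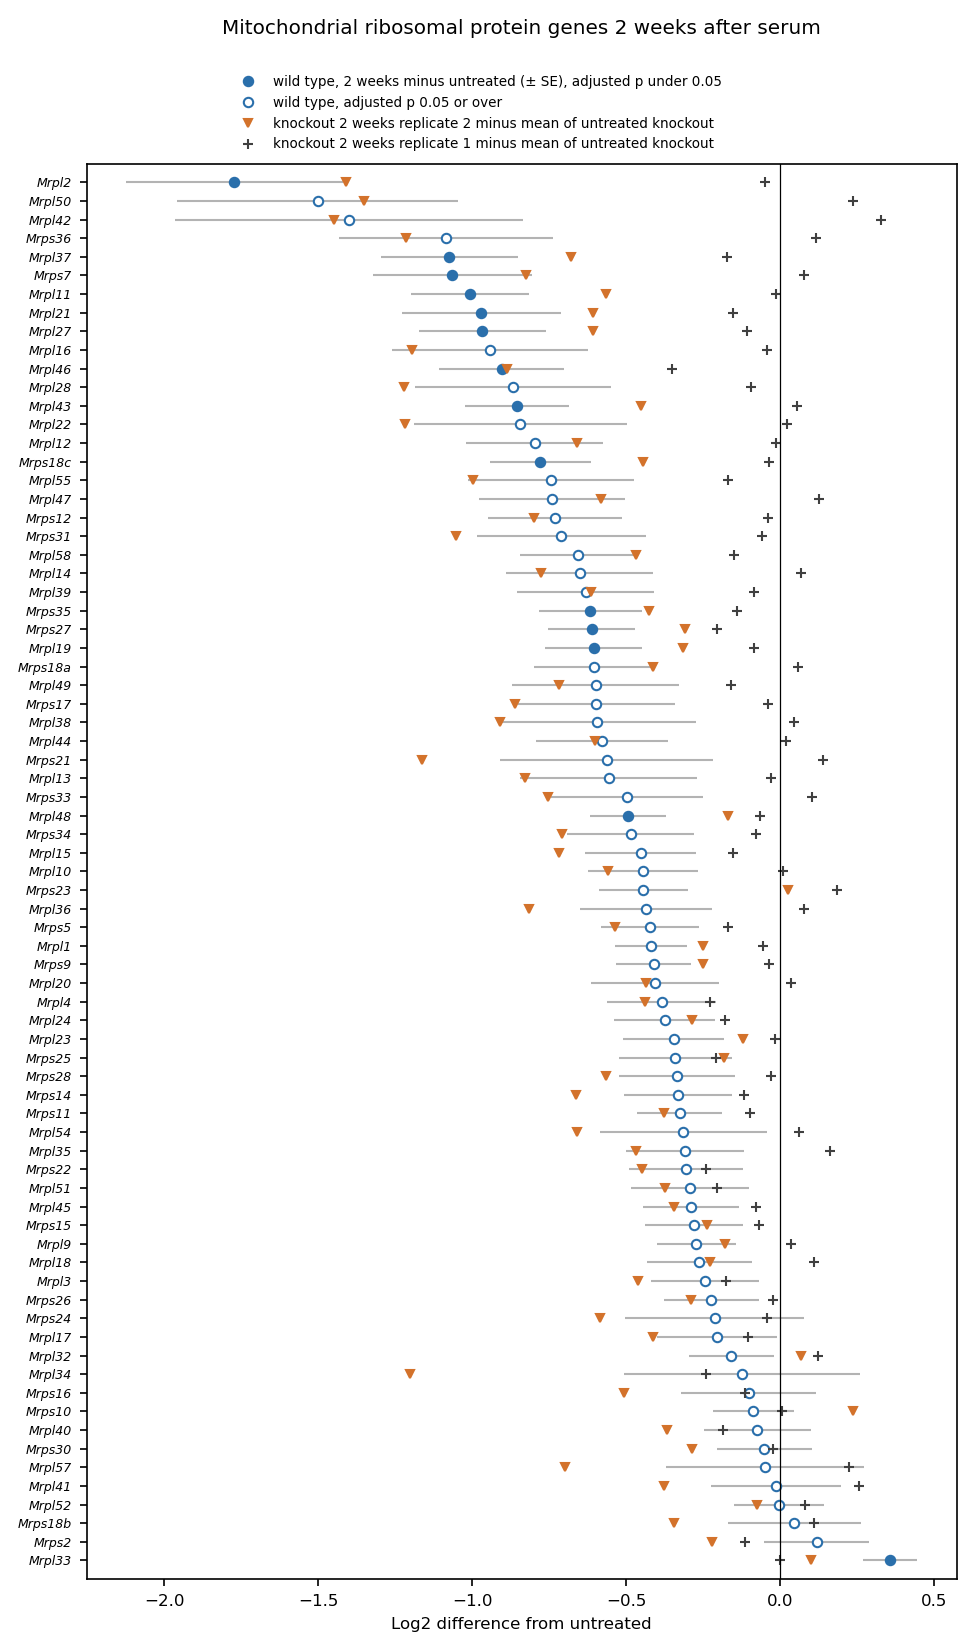
Log2 difference from untreated of each of the 75 members, ordered by the wild type difference, with circles for wild type (bars, ± SE from limma; filled where the adjusted p was under 0.05), triangles for knockout 2 weeks replicate 2 and crosses for knockout 2 weeks replicate 1. The circles run from -1.77 (Mrpl2) to 0.36 (Mrpl33), most triangles lie to the left of 0 and the crosses scatter about it.

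Over both knockout arrays 0 of 75 members were called at 2 weeks by limma (background 0% lower and 0.109% higher), with 4 at an unadjusted p under 0.05 and a smallest adjusted p of 0.41. Of the 75, 70 were below 0, and the median was -0.299. Mrpl2 was at -0.73 ± 0.35 (adjusted p = 0.62), Mrpl34 at -0.72 ± 0.38 (adjusted p = 0.65) and Mrpl28 at -0.66 ± 0.32 (adjusted p = 0.62). At the other end Mrps10 was at 0.12, Mrps23 at 0.10 and Mrpl32 at 0.09, and none of these 6 passed. Without replicate 1, which leaves 1 array that is assumed to vary like the other groups, 14 members were called, all lower, against 3.06% of all genes called lower. Among them were Mrpl36 at -0.81 (adjusted p = 0.012), Mrpl2 at -1.41 (adjusted p = 0.016), Mrps31 at -1.05 (adjusted p = 0.026), Mrps36 at -1.22 (adjusted p = 0.026) and Mrpl16 at -1.20 (adjusted p = 0.027). Of these, only Mrpl2 and Mrpl46 were also called in wild type over all arrays. Mrpl36, Mrps31, Mrps36 and Mrpl16 fell in wild type too, with log2 differences of -0.44, -0.71, -1.09 and -0.94. The 2 lists are not like for like, since the knockout calls come from the fit without replicate 1. In the same fit wild type had 34 members called, 33 of them lower, against 6.9% of all genes called lower. Without both 18-hour replicate 2 arrays and this array, 5 members were called in the knockout, all lower, against 2.74% of all genes called lower.

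The comparison of genotypes at 2 weeks called 0 members (limma, background 0.182% of genes in either direction), with a smallest adjusted p of 0.11. At an unadjusted p under 0.05 were 18 members (24%), near the share of all genes (19.4%). Of the 75 members 67 were higher in the knockout, with a median log2 difference of 0.249 against -0.060 for all genes. Mrpl2 had the largest difference, 1.33 ± 0.35 (adjusted p = 0.13), followed by Mrpl50 at 1.21 ± 0.46 (adjusted p = 0.20) and Mrpl16 at 0.92 ± 0.32 (adjusted p = 0.18). Mrpl33 was lower in the knockout, by a log2 difference of -0.37 ± 0.09 (adjusted p = 0.11), and the largest remaining negative differences were in Mrps16 (-0.26) and Mrpl34 (-0.17). The sign of Mrpl34 rested on single arrays, at 0.31 without knockout 2 weeks replicate 2 and 0.50 when the wild type array of that number was left out. This comparison rested on knockout replicate 1. Without it the median was 0.021, 39 of 75 were above 0 and 0 were called, with 7 at an unadjusted p under 0.05. Without replicate 2 in its place the median was 0.548 and 27 were called, 26 higher and 1 lower, against 9.6% and 8.09% of all genes. Without wild type 2 weeks replicate 1 the count was 6, 5 higher and 1 lower, against 2.49% and 12.4% of all genes.

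No difference in response between the genotypes passed its own test. The F test over the 3 times called 0 members and 0 genes, with 3 members (4%) and 6.17% of genes at an unadjusted p under 0.05. The smallest adjusted p among members was 0.80, and these 3 were Mrpl33, Mrpl11 and Mrps23. At 2 weeks the difference of responses, knockout minus wild type, had a median of 0.169 over the members and was above 0 for 61 of 75. It was 1.04 ± 0.50 for Mrpl2 (adjusted p = 0.67), 0.72 ± 0.27 for Mrpl11 (adjusted p = 0.64) and -0.31 ± 0.12 for Mrpl33 (adjusted p = 0.64). Without knockout 2 weeks replicate 2 the F test called 1 member, against 1.86% of all genes.

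Averaged over the 4 times, knockout minus wild type called 0 members and 0 genes (background 0%), with 4 members (5.33%) and 11.7% of genes at an unadjusted p under 0.05. The median of the members was 0.075. The largest differences were in Mrpl2 (0.40 ± 0.18, adjusted p = 0.41), Mrpl16 (0.36 ± 0.16, adjusted p = 0.42) and Mrpl50 (0.33 ± 0.23, adjusted p = 0.61). The lowest were in Mrps16 (-0.15), Mrpl52 (-0.12) and Mrpl33 (-0.11). Without knockout 2 weeks replicate 2 this comparison called 2 members, both higher, against 3.69% of all genes called higher.

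Before serum no member differed past the threshold between genotypes. Knockout minus wild type in untreated mice had a median of 0.061, with 51 of 75 above 0, 0 called (background 0%) and 0 at an unadjusted p under 0.05. Mrpl16 was 8.25 and 8.68 in wild type and 8.90 and 9.22 in the knockout, which do not overlap. Its log2 difference of 0.60 ± 0.32 did not pass (adjusted p = 0.99), nor did those of Mrpl34 (0.43) and Mrps18b (0.41). The lowest were in Mrps10 (-0.18), Mrpl23 (-0.18) and Mrpl37 (-0.16).

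No member was called at 18 hours or 6 days after serum, which at 2 arrays per group does not show that none changed. At 18 hours limma called 0 members and 0 genes in either genotype (background 0%), with 0 members at an unadjusted p under 0.05, and medians of 0.081 in wild type and -0.074 in the knockout. In wild type the largest differences were in Mrpl16 (0.58), Mrpl50 (0.47) and Mrpl34 (0.38), and the lowest in Mrpl37 (-0.32), Mrpl4 (-0.17) and Mrpl46 (-0.10). In the knockout they were in Mrps27 (0.27), Mrpl23 (0.25) and Mrps10 (0.24), and in Mrpl2 (-0.44), Mrpl16 (-0.33) and Mrps31 (-0.32). None of these 12 values passed. Unless stated, the 18-hour values here include both replicate 2 libraries, which carried the other genotype's values for genes higher in male kidney. Below 0 in the knockout at 18 hours were 51 of 75 members, against 41.5% of all genes. Groups did not overlap on the lower side for 27 (36%, background 16.4%). In wild type at 18 hours 22 of 75 were below 0, against 46.9% of all genes. Groups there did not overlap on the lower side for 3 (4%, background not counted). Between genotypes at 18 hours the median was -0.069, with 0 called (background 0%) and 0 at an unadjusted p under 0.05. The lowest were in Mrps22 (-0.35), Mrps31 (-0.34) and Mrpl22 (-0.33) and the highest in Mrps23 (0.13), Mrpl23 (0.11) and Mrps18a (0.11). Mrpl23 was at -0.29 in the last comparison and at -0.006 in the knockout response when both 18-hour replicate 2 arrays were left out, so its sign rested on them.

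In wild type at 6 days 0 members were called (background 0%), with 1 at an unadjusted p under 0.05, Mrps35 at -0.37 ± 0.17 (adjusted p = 0.71), and a median of -0.006. Besides Mrpl37 and Mrps35, Mrpl44 was among the lowest at -0.36, and Mrpl54 (0.34), Mrps24 (0.28) and Mrpl17 (0.27) were the highest. In the knockout 0 members were called (background 0.0133%), with 0 at an unadjusted p under 0.05 and a median of -0.110. In this comparison 58 of 75 were below 0, against 49.5% of all genes. Groups did not overlap on the lower side for 29 (38.7%, background 21.8%). In wild type at 6 days 38 of 75 were below 0, against 42.3% of all genes. Groups there did not overlap on the lower side for 14 (18.7%, background not counted). The lowest in the knockout were Mrpl34 (-0.53), Mrps36 (-0.42) and Mrps35 (-0.35), and the highest Mrps18c (0.28), Mrpl18 (0.22) and Mrpl45 (0.09). At 6 days Mrps35 was 8.5 and 8.47 in wild type and 8.5 and 8.25 in the knockout, against 8.68 to 8.98 in the 4 untreated arrays, and neither difference passed. Between genotypes at 6 days 0 members were called (background 0.00664%), with 2 at an unadjusted p under 0.05, a lowest difference in Mrpl23 (-0.43, adjusted p = 0.98) and a highest in Mrpl18 (0.30).

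Members differed in how far they ranged over the 8 groups. The range of the group means was largest in Mrpl2 (2.06), Mrpl50 (1.98) and Mrpl16 (1.54) and smallest in Mrps2 (0.19), Mrps10 (0.26) and Mrps30 (0.27). The spread between replicates was 0.388 in Mrpl2, 0.515 in Mrpl50 and 0.355 in Mrpl16, and 0.168, 0.104 and 0.153 in the last 3. The median range over all members was 0.626, and the median spread between replicates 0.202.

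The other genes needed to build and run the mitochondrial ribosome were counted in wild type at 2 weeks, against the same background of 3.23% lower and 4.81% higher. Among 24 genes for its assembly and for modification of its RNA, 4 fell (16.7%) and 0 rose, with a median of -0.26. The largest of these falls was in Rbfa, a maturation factor of the small subunit, at -0.82 ± 0.20 (adjusted p = 0.035), with Rpusd3, Gtpbp10 and Malsu1 at -0.72, -0.56 and -0.54. Among 16 factors of mitochondrial translation 2 fell (12.5%) and 0 rose, with a median of -0.46. Tufm, the elongation factor that brings transfer RNAs to the ribosome, was at -1.75 ± 0.41 (adjusted p = 0.032), and Lrpprc, which stabilises mitochondrial messenger RNAs, at -0.64 ± 0.18 (adjusted p = 0.049). Of 4 subunits not named Mrpl or Mrps, 0 were called, among them Dap3 at -0.55 (adjusted p = 0.069). Among 16 mitochondrial aminoacyl-tRNA synthetases, which charge transfer RNAs, 0 fell and 1 rose, Pars2 at 0.55 ± 0.15 (adjusted p = 0.045), with a median of -0.29. That 1 of 16 (6.25%) is near the background and is no result about the list.

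Genes that copy and transcribe mitochondrial DNA were also lower, 5 of 9 called (55.6%), with a median of -0.60. These were Mterf2 (-0.88), Polg2 (-0.83), Twnk (-0.69), Tfam (-0.60) and Polrmt (-0.57), with adjusted p-values of 0.016 to 0.041. Tfam packages mitochondrial DNA, and Polrmt transcribes it. Polrmt was 7.29 and 7.27 at 2 weeks against 7.86 and 7.84 untreated. Of 10 regulators of mitochondrial biogenesis, 2 fell (20%) and 1 rose (10%), with a median of -0.15. Those that fell were Esrrb (-1.09, adjusted p = 0.015) and Ppargc1b (-0.97, adjusted p = 0.038), and Myc rose (1.26, adjusted p = 0.035). Ppargc1a, a coactivator known to drive mitochondrial biogenesis, was 13.12 and 12.33 against 14.06 and 13.65, a log2 difference of -1.13 ± 0.34 that did not pass (adjusted p = 0.065).

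Among 74 nuclear subunits of the respiratory chain, 37 fell (50%) and 0 rose, with a median of -1.26, and the largest falls were in Uqcrb (-2.41), Cyc1 (-2.27) and Ndufb9 (-2.26). Of 38 proteins of the cytosolic ribosome 1 fell, Rps15 at -1.43 (adjusted p = 0.044), with a median of -0.19. That 1 of 38 (2.63%) is near the background. In the knockout at 2 weeks 0 genes of each of these lists were called. Medians were -0.66 for respiratory chain subunits, -0.34 for copying and transcription of mitochondrial DNA, -0.32 for translation factors and -0.04 for cytosolic ribosomal proteins. These medians come from the mean of 2 unlike arrays. The respiratory chain mean was 12.11 in knockout replicate 1 and 10.88 in replicate 2, against 12.125 and 12.225 in untreated knockout. In wild type it was 10.48 and 11.07 at 2 weeks, against 11.92 and 12.26 untreated. The difference between lists was not tested. The ribosomal RNA mt-Rnr1 was near the top of the scale on all arrays, at 19.86 to 19.93, where a change may not register. The transfer RNA mt-Tk was 15.63 in knockout 2 weeks replicate 1 and 7.90 to 10.94 on the other 15 arrays.

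**Figure D4:**
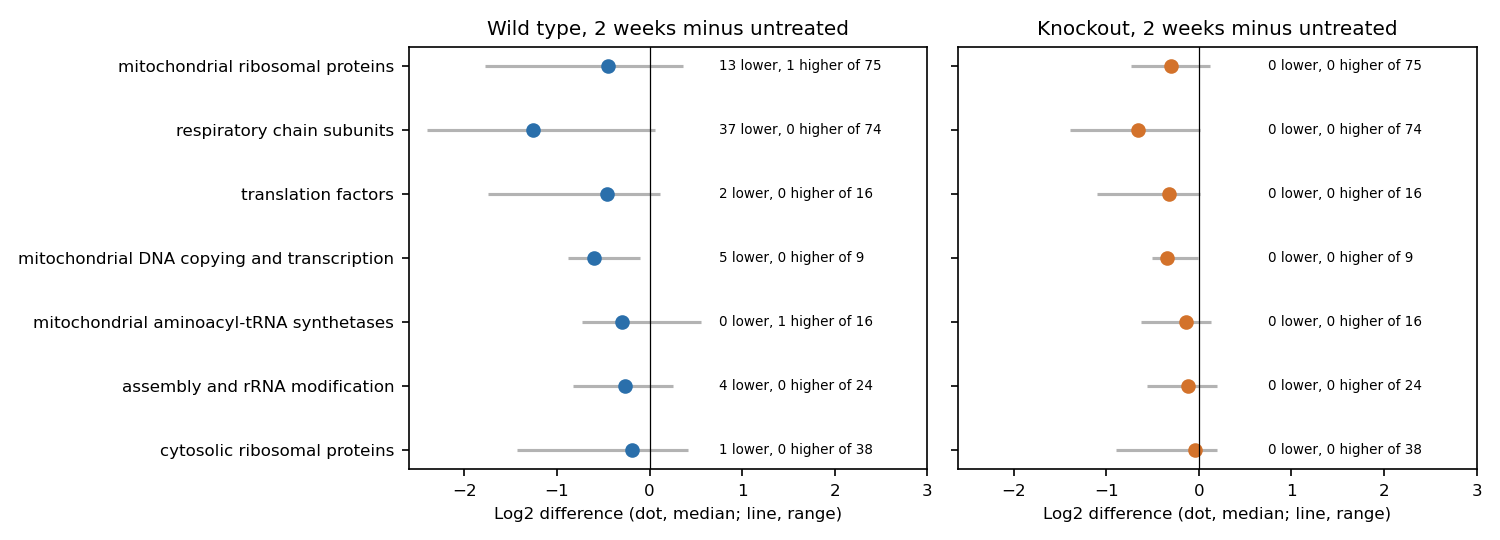
Median (dot) and range (line) of the log2 differences from untreated at 2 weeks over the genes of each list, wild type in the left panel and knockout in the right, with the number called lower and higher beside each. For the 7 lists plotted, which leave out the biogenesis regulators, the wild type medians run from -1.26 for respiratory chain subunits to -0.19 for cytosolic ribosomal proteins. The knockout medians lie nearer to 0 for every list shown, and each knockout difference averages 2 unlike arrays at 2 weeks.

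Markers of tubule moved with the members at 2 weeks. The mean of 12 proximal tubule markers was 15.5 to 16.5 on the 12 earlier arrays, 13.51 and 14.58 in wild type at 2 weeks, 14.53 in knockout replicate 2 and 16.20 in knockout replicate 1. In wild type 6 of 12 fell, with a median of -2.16, among them the transporters Slc22a6 (-3.30) and Slc22a8 (-2.51), the megalin gene Lrp2 (-2.11) and Kap (-2.90). The 3 arrays with low proximal tubule means were the 3 with low members, with a member mean of 7.99, 8.20 and 8.12 against 8.5 to 8.77 on the other 13. Of 7 distal nephron markers 0 were called, with a median of -1.29. Markers of the glomerulus were on the other side of 0 and not called, with medians of 0.82 for 7 podocyte, 1.30 for 8 endothelial and 1.37 for 5 mesangial genes. These medians were already 0.77, 0.96 and 0.56 in wild type at 6 days, where the median of the members was -0.006. For the knockout at 6 days they were 0.79, 0.94 and 0.56, with a member median of -0.110. Of 10 macrophage and monocyte markers 8 rose, led by Lyz2 at 3.07 ± 0.41 (adjusted p = 0.0074), and of 5 tubule injury markers 2 rose, Havcr1 at 6.84 and Vcam1 at 4.00. The mean of the 5 injury markers was 9.15 and 8.79 in wild type at 2 weeks. It was already 9.08 in knockout 6 days replicate 2, with Havcr1 at 12.39, and that array was among the 13 whose members were not low. In the knockout at 2 weeks 0 of these markers were called, with a median of -1.18 for proximal tubule and 0.12 for macrophage genes. No marker is listed at 0 on this log2 scale. The part of any of these in the members' values was not tested.

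**Figure D5:**
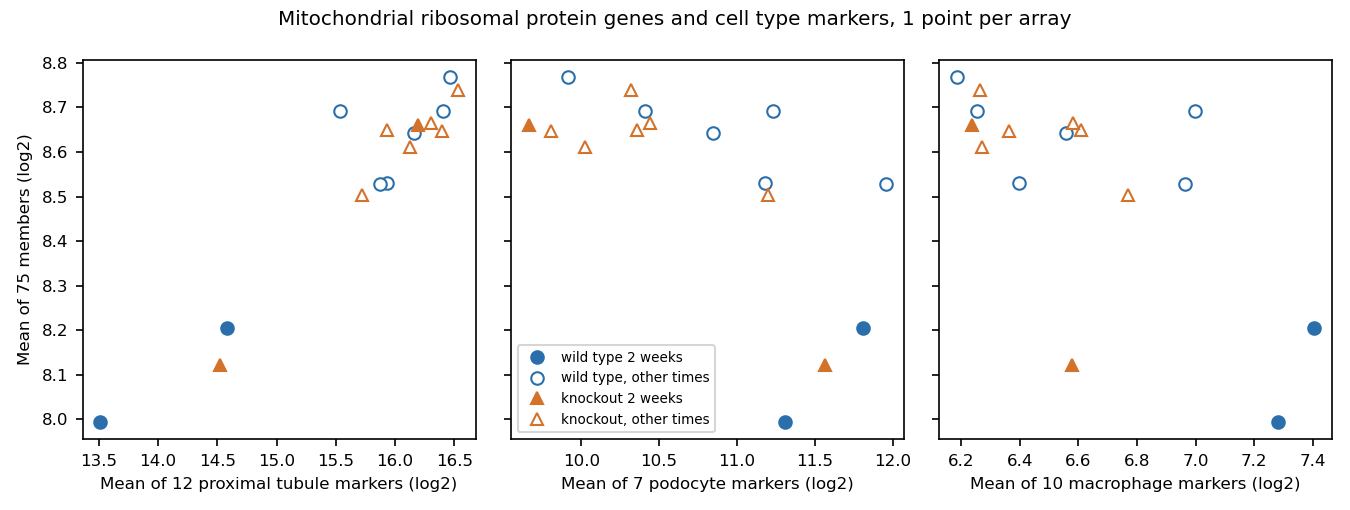
Mean log2 value of the 75 members against the mean of 12 proximal tubule markers (left), 7 podocyte markers (middle) and 10 macrophage markers (right), 1 point per array, circles for wild type and triangles for knockout, filled at 2 weeks. On the left, 3 arrays at 2 weeks lie apart with proximal tubule means of 13.51 to 14.58 and member means of 7.99 to 8.20, and the filled triangle among the earlier arrays is knockout 2 weeks replicate 1.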

How the data were processed

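RNA of glomerular extracts was hybridised to 1 Affymetrix array for each of 16 mice. The deposited table holds log2 values of 72688 probesets, made by the authors with Affymetrix Expression Console and Transcriptome Analysis Console, per the submitters' processing notes. The sources used here give no version, summarisation method or annotation build. Values ran from 2.22 to 19.93 and array medians from 5.57 to 5.90. Values above 16, the log2 of the largest scanner reading, show that a further, unstated transformation was made, so differences are in deposited log2 units. No level of one probe was set against that of another.

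Probesets with exactly 1 symbol (30604) were used, and those with several (2146) or none (39938) were not. Symbols of 827 were updated through the Entrez identifier. The probeset with the highest mean was kept for the 355 genes with several, which gave 30142 genes. Dim genes were kept, and groups came from the labels.

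With limma 3.58.1 in R 4.3.3, a linear model was fitted to each gene with 8 group means over 16 arrays (8 residual degrees of freedom), variances moderated with an intensity trend, and Benjamini-Hochberg adjustment over all genes. The threshold for a call was an adjusted p of 0.05. The script was tested on simulated data. Nothing says that mice of a group were of different litters, so p-values measure the spread between these arrays. The members and lists were chosen with earlier results of these data known. Promoters are RefSeq entries matched by symbol.

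Members named are those called (12 with the smallest p where more were, to which the others were added after their values were seen), the 3 highest and 3 lowest of each contrast, the 3 with the largest and smallest range of group means, and members of well known function. From each other list up to 3 genes with the largest difference are named, with Ppargc1a, Tfam and Polrmt, and further called genes of those lists were named after their values were seen. Alternatives were quantile normalization, median centring, leaving out dim genes, averaging probesets, no trend, a replicate block, fitting only the groups compared, fits of 14 and 13 arrays, and leaving out each array in turn.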

Additional observations from a re-analysis of the deposited data

How the results depend on the processing

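Members called in wild type at 2 weeks numbered 14, 13 of them lower (3.23% of all genes called lower), against 7 after quantile normalization (all lower, 2.03%), 36 after median centring (all lower, 9.05%), 5 over 14 arrays, 26 over 13 arrays, 1 in the fit of the groups compared and 0 to 34 without 1 array. Leaving out dim genes and fitting no trend gave 18 each (17 lower, 7.88% and 3.74%), and averaging probesets 14 (13 lower, 3.19%). Correlations of replicate 1 deviations from the group mean ran from -0.679 to 0.593 over 28 pairs of groups, with 11 over 0.1. They showed no pairing by replicate number shared by all groups, but cannot exclude a pairing in some. The replicate block gave 12 (11 lower, 2.61%), all among the 14. In the knockout at 2 weeks 13 arrays gave 5 members called, and leaving out 1 array gave 0 to 14. Leaving out 1 array gave 0 to 27 for the genotypes at 2 weeks, 0 to 2 for the genotype average and 0 to 1 for the F test. The median of members between genotypes at 2 weeks was 0.021 over 13 arrays and 0.021 to 0.548 without 1 array. In wild type at 2 weeks it was -0.659 after median centring. In the knockout at 2 weeks it was -0.538 over 13 arrays and -0.538 to -0.039 without 1 array. All other counts stayed at 0 and all other medians moved by less than the spread between replicates (0.141). Single members changed sign. After median centring Mrps2 (-0.10) and Mrps18b (-0.17) were below 0 in wild type at 2 weeks, and Mrps23 (-0.0084) and Mrpl32 (-0.018) in the knockout at 2 weeks, where Mrpl32 was -0.0091 after quantile normalization. Mrpl23 at 18 hours was -0.29 between genotypes and -0.0064 in the knockout response over 14 and 13 arrays. With 1 array left out, Mrpl23 ran from -0.15 to 0.37 between genotypes at 18 hours and from -0.0064 to 0.51 in the knockout at 18 hours, and Mrpl34 from -0.84 to 0.50 between genotypes at 2 weeks. Likewise Mrps2 ran from -0.15 to 0.39 and Mrps18b from -0.22 to 0.31 in wild type at 2 weeks, Mrpl4 from -0.33 to 0.001 in wild type at 18 hours, and Mrpl45 from -0.037 to 0.22 in the knockout at 6 days. The causes were not tested. Precision is limited by 2 arrays per group.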
